A study of Mus musculus with 6 samples.

Results

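The genes described here are 42 mouse genes of the unfolded protein response and the integrated stress response, taken by symbol from a table of 54532 genes. They comprise 15 chaperones and folding enzymes of the endoplasmic reticulum (ER), 6 genes of ER-associated degradation, 4 genes of the stress sensors and XBP1, 9 regulators of the integrated stress response and 8 amino acid enzymes and transporters. All 42 were found in the table, and all 42 had a mean level high enough to be tested. A second identifier that carries the symbol Ddit3 was at 0 in all 6 libraries and was not counted.

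The unfolded protein response is the programme by which a cell adjusts its ER when client proteins misfold there. IRE1 (encoded by Ern1), PERK (Eif2ak3) and ATF6 sense the load. IRE1 splices the mRNA of the transcription factor XBP1, ATF6 is cleaved into a transcription factor, and PERK phosphorylates the initiation factor eIF2. Phosphorylation of eIF2, which other kinases also carry out, starts the integrated stress response, in which general translation falls while the transcription factor ATF4 is made and its targets in amino acid supply are transcribed. In neutrophils, the ER folds the granule proteases during maturation in the bone marrow.

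Neutrophils were taken from the bone marrow of C57BL/6J wild-type (WT) mice and of progranulin knockout (PGRN KO) mice on the same background, in which the secreted glycoprotein progranulin, encoded by Grn, is missing from the whole animal. The cells were selected with anti-Ly-6G beads, cultured for 2 h and challenged with the yeast Candida albicans for 6 h, and RNA was sequenced from 3 WT and 3 PGRN KO libraries. The comparison asks how the transcriptome of stimulated neutrophils differs without progranulin. Both groups were stimulated, no unstimulated neutrophil library was analysed here, and so the values compare genotypes and do not measure induction by the fungus. The titles of the WT libraries carry the word control, while the treatment label gives the same challenge for all 6. The knockout and WT mice came from different suppliers, which cannot be told apart from the genotype, and how many mice supplied each library is not stated.

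Levels are given as FPKM, fragments normalised for gene length and library size, so that they can be compared between genes. Each library held between 17087344 and 18821091 fragments on genes. Grn itself was at 168, 161 and 166 FPKM in WT and at 0.242, 0.206 and 0.747 FPKM in PGRN KO, a log2 fold change of -6.91, and all 6 libraries therefore carried the Grn level that their labels call for. Neutrophil markers such as S100a8, S100a9, Ngp and Camp were at high levels in both genotypes (summed over 11 markers, 67490 to 72100 FPKM in WT and 69280 to 79050 FPKM in PGRN KO). Markers of other cells moved with genotype, and they are given beside the results below. In bulk RNA, fewer cells of a type and less RNA per cell cannot be told apart.

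Genotypes were compared with limma on log2(FPKM + 1), and a gene was called when its p adjusted over 14807 genes was under 0.05. A fold change on this scale is smaller than the ratio of FPKM for genes at low levels. Of the 42 genes, 6 were called higher in PGRN KO (14.3%, against 7.94% of all genes tested) and 10 were called lower (23.8%, against 9.95%), while 26 were not called. The 6 that rose were Phgdh, Psat1, Shmt2, Asns, Slc7a5 and Mthfd2, all genes of amino acid supply. The 10 that fell were the chaperones Hyou1, Dnajb9, Hspa5, P4hb, Sdf2l1 and Calr, with Herpud1, Ppp1r15a, Sesn2 and Slc3a2. The median log2 fold change of the 42 was -0.0081, against 0.0026 over all genes tested, and 21 had a positive and 21 a negative value. The genotypes did not overlap, with PGRN KO higher, in 9 of the genes (18.1% of all genes tested) and, with PGRN KO lower, in 16 (19.6% of all genes tested).

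**Figure D1:**
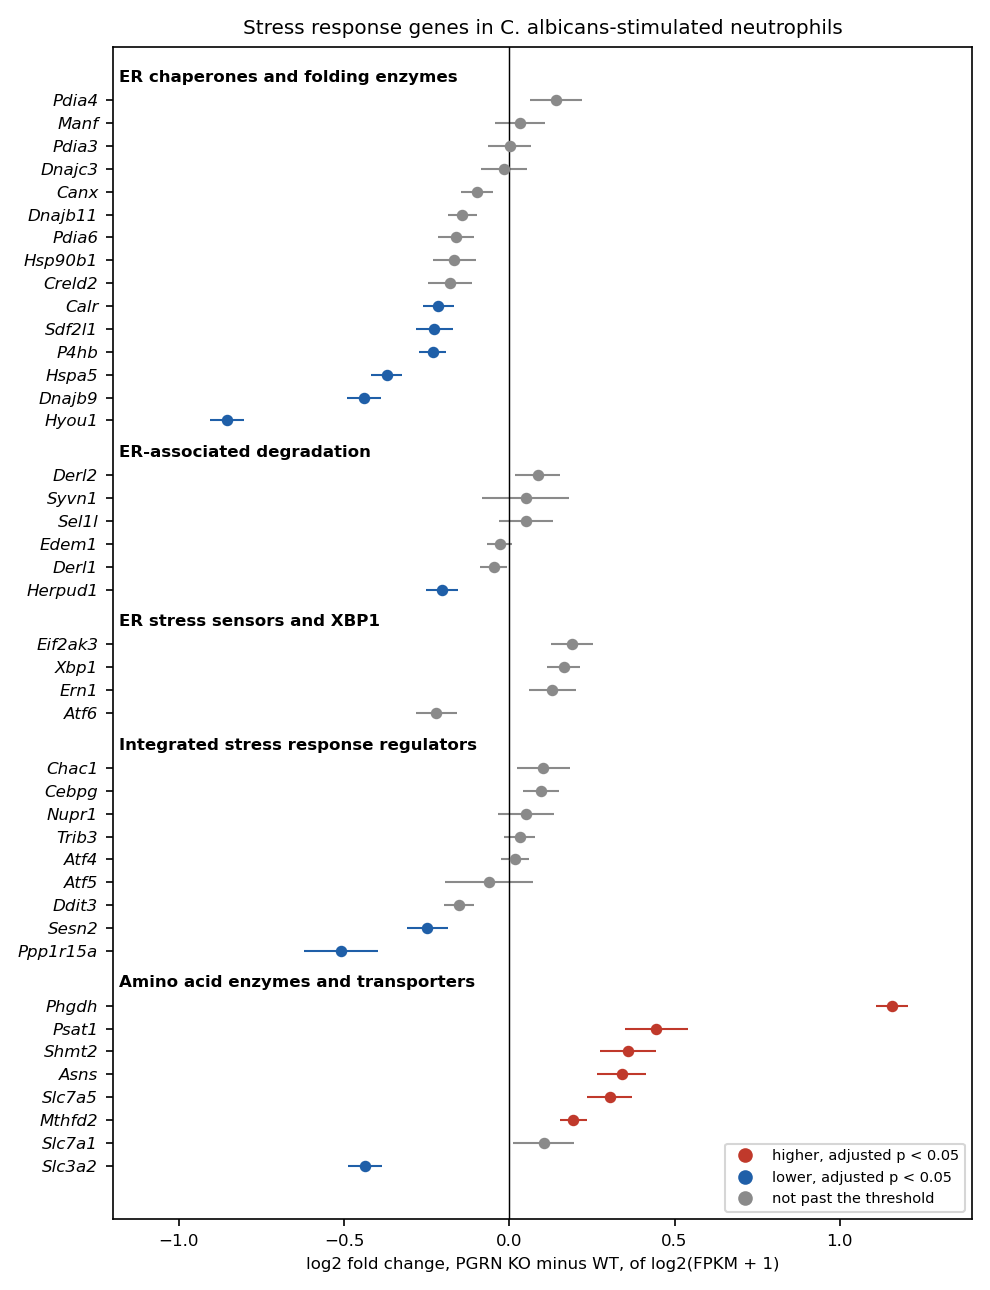
Log2 fold change (PGRN KO minus WT, of log2(FPKM + 1)) of each of the 42 genes, grouped by role, with bars of 1 standard error; red points are genes called higher, blue points genes called lower and grey points genes not past the threshold. The 6 red points lie in the amino acid group, and 6 of the 10 blue points lie among the chaperones.

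The mean FPKM of each of the 42 genes was 1 or more. When the fit took in such genes alone, 13.7% were called higher and 17.3% lower, and of the 42 genes 7 (16.7%) and 12 (28.6%) were, with Xbp1 joining the higher and Ddit3 and Atf6 the lower genes. The higher share was therefore close to that of other expressed genes, and the lower share was above it.

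Whether more genes were called higher or lower differed between some of the library scalings tried. Median-of-ratios scaling left the counts at 6 higher and 10 lower. It moved the median of all genes by only -4.9e-06, so it nearly equals the authors' scaling and could hardly change the counts. Quantile normalization gave 7 and 8. The authors divided by library sizes that place PGRN KO values 0.12 lower on the log2 scale than plain totals of fragments do. With plain totals, 9 of the 42 genes were called higher (14.5% of all genes tested) and 4 lower (6.31% of all genes tested), so that 69.2% of the calls were higher in place of 37.5%. The 4 were Hyou1, Dnajb9, Hspa5 and Slc3a2, and the 9 were the 6 named above with Xbp1, Eif2ak3 and Cebpg. With voom, a limma method for counts, on the recovered fragments, 13 were called higher (20.2% of all genes tested) and 5 lower (8.46%). Voom here also scaled by totals of fragments, so for the scaling it is not a separate check from plain totals. The median of all genes moved by 0.12 with voom, and the median of the 42 was then 0.11, against 0.12 over all genes. Hyou1, Dnajb9, Hspa5 and Slc3a2 were called lower and Phgdh higher in all 17 alternative fits, so the calls of these 5 genes held under each scaling tried.

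**Figure D2:**
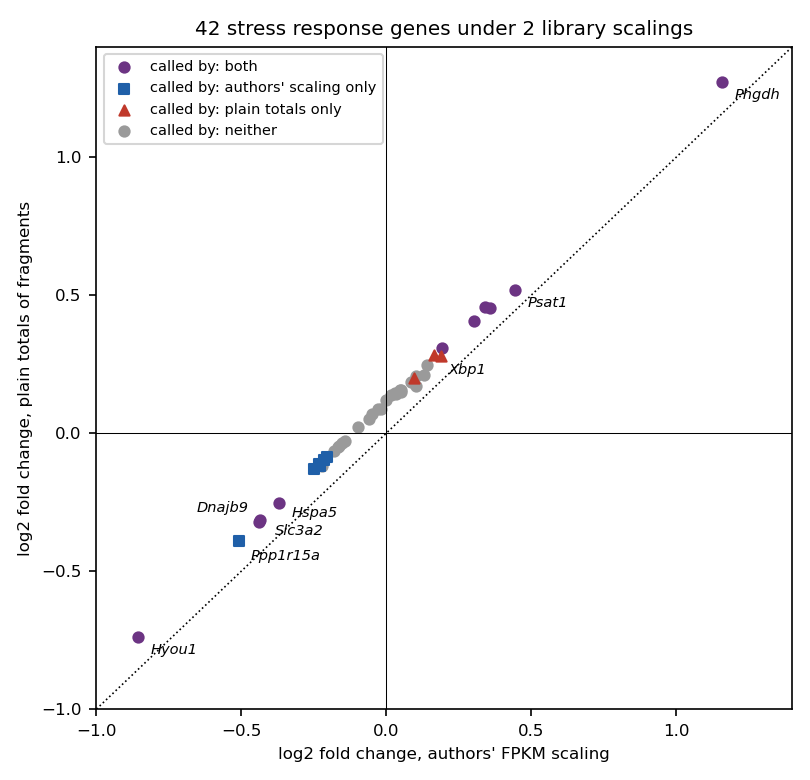
Log2 fold change (PGRN KO minus WT) of the 42 genes with the authors' FPKM scaling (horizontal axis) and with plain totals of fragments (vertical axis); the dotted line marks equal values, and colour and shape mark by which scaling a gene was called. Every point lies above the dotted line, and Hyou1, Dnajb9, Hspa5, Slc3a2 and Phgdh were called by both scalings.

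The ER chaperones and folding enzymes were lower in PGRN KO or not called. Of 15 genes, 6 fell (40%, against 9.95% of all genes tested) and 0 rose (limma). The same number fell in the fit of genes with a mean FPKM of 1 or more, where 17.3% of genes did. The median log2 fold change was -0.17 with the authors' scaling and -0.049 with plain totals, and 12 of 15 had a negative value with the first and 10 of 15 with the second. Their summed level, with the authors' scaling, was 854.9 to 859.6 FPKM in the WT libraries and 705.3 to 739 FPKM in the PGRN KO libraries.

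Hyou1 (ENSMUSG00000032115, chr9:44379490-44392369), an ER member of the HSP110 family that exchanges nucleotide on BiP, had the largest fall of the 42 genes. It was at 39.6, 38.1 and 38.9 FPKM in WT and at 22.3, 20.7 and 20.1 FPKM in PGRN KO. Every PGRN KO library was below every WT library by a wide margin, and Hyou1 fell by 0.86 ± 0.051 (SE, n = 3 per genotype) on the log2 scale (limma, adjusted p = 0.000287).

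Hspa5 (ENSMUSG00000026864, chr2:34771970-34777547) encodes BiP, the main HSP70 chaperone of the ER and the usual readout of the unfolded protein response. It was at 167, 169.9 and 168 FPKM in WT and at 129, 124 and 137 FPKM in PGRN KO. The genotypes did not overlap, and Hspa5 fell by 0.37 ± 0.047 (limma, adjusted p = 0.00379). The ratio of Hyou1 to Hspa5 within a library was 0.231 ± 0.0067 (SD, n = 3) in WT and 0.162 ± 0.014 in PGRN KO. Scaling each library by a single factor cannot move this ratio, whereas quantile normalization can.

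Dnajb9 (ENSMUSG00000014905, chr12:44205559-44210326) encodes ERdj4, a J-domain partner of BiP that also acts on IRE1. It was at 33, 33.6 and 34.9 FPKM in WT and at 23.5, 24.6 and 26 FPKM in PGRN KO. The 3 knockout libraries again lay below all WT libraries, and Dnajb9 fell by 0.44 ± 0.052 (limma, adjusted p = 0.00284).

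The other 3 that fell did so by less. P4hb, which encodes protein disulfide isomerase, was at 283, 292 and 295 FPKM in WT and at 255, 240 and 246 FPKM in PGRN KO, and fell by 0.23 ± 0.041 (limma, adjusted p = 0.0117). It was the most abundant of the 15 by FPKM in both genotypes. Calr, the lectin chaperone calreticulin, was at 88.3, 85.6 and 83.7 FPKM in WT and at 77.4, 72.1 and 72.1 FPKM in PGRN KO, and fell by 0.21 ± 0.046 (limma, adjusted p = 0.0219). Sdf2l1, a companion of BiP and its J-domain partners, was at 8.98, 9.04 and 8.85 FPKM in WT and at 8.04, 7.16 and 7.35 FPKM in PGRN KO, and fell by 0.23 ± 0.057 (limma, adjusted p = 0.0363). In all 3 genes the genotypes were apart, but the gap was small beside that of Hyou1. P4hb, Calr and Sdf2l1 were not called with plain totals (log2 fold changes -0.11, -0.096 and -0.12) or with voom. P4hb also lost its call without WT replicate 2 or PGRN KO replicate 5, Calr with quantile normalization, with eBayes without trend and without WT replicate 1 or 2 or PGRN KO replicate 5 or 6, and Sdf2l1 without any library but PGRN KO replicate 4, with log2 fold changes over the alternatives of -0.25 to -0.11, -0.25 to -0.096 and -0.27 to -0.12.

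Not called among the 15 were Hsp90b1, the ER member of the HSP90 family (log2 fold change -0.17), Canx, the membrane-bound lectin chaperone calnexin (-0.097, and 0.021 with plain totals), the disulfide isomerases Pdia3 (0.00072), Pdia4 (0.14, called higher with voom) and Pdia6 (-0.16), the J-domain proteins Dnajb11 (-0.14) and Dnajc3 (-0.017, and 0.087 with plain totals), the folding factor Creld2 (-0.18) and the secreted factor Manf (0.033). Hsp90b1, Pdia6, Dnajb11 and Creld2 were lower in every PGRN KO library than in any WT library without passing the threshold. The lowest values of the list were those of Hyou1, Dnajb9 and Hspa5, that is, of BiP with a nucleotide exchange factor and a J-domain partner.

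Promoters of several of these genes hold the ER stress response element (ERSE), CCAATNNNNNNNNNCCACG, to which ATF6 and XBP1 bind with the factor NF-Y. Promoter sequences of 250 bases before to 50 bases after the start were available from RefSeq (GRCm38.p6) for 37 of the 42 genes, and were not found for Slc7a5, Hyou1, Atf6, Manf and Derl1. The element, searched on both strands, was in 39 of 32851 promoters (0.119%), or in 0.137% of the 27025 genes with a promoter. It was in the promoters of 8 of the 37 genes (21.6%): Hspa5, Calr, Canx, Creld2, Dnajc3, Hsp90b1, Pdia6 and Syvn1. Of these 8, Hspa5 and Calr were called lower and the other 6 were not called, and Dnajb9, P4hb and Sdf2l1 fell without the element in this window. The stretches of 4 chaperone promoters are shown because they carry the same element and differ in their values, and capitals mark the element, read on the opposite strand in Calr and at the second site of Hsp90b1. The Hspa5 stretch lies in exon 1 of the GENCODE transcript Hspa5-201 and the other 3 overlap no GENCODE exon.
Hspa5, chr2:34772019-34772048, plus strand: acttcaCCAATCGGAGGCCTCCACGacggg
Calr, chr8:84847055-84847114, minus strand: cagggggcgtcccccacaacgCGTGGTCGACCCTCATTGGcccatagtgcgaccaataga
Canx, chr11:50325780-50325839, minus strand: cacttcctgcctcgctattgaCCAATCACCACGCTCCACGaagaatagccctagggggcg
Hsp90b1, chr10:86705523-86705666, minus strand: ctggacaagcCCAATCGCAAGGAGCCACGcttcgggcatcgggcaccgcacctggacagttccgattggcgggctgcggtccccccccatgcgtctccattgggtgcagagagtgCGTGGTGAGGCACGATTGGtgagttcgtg
The element lies from base -65 to base -47 relative to the start in Hspa5 and from base -162 to base -144 in Calr. A match of letters is a description and not evidence of binding.

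In ER-associated degradation, by which misfolded proteins are drawn out of the ER and destroyed, 1 of 6 genes fell and 0 rose. That share (16.7%, against 9.95% of all genes tested) was the same in the fit of genes with a mean FPKM of 1 or more, where 17.3% of genes fell. The summed level, taken with the authors' scaling alone, was 171 to 177 FPKM in WT and 163 to 166 FPKM in PGRN KO. With plain totals 0 of the 6 genes were called, 5 had a positive value and the median log2 fold change was 0.12. Herpud1, a membrane protein of the degradation complex that is strongly induced by ER stress, was at 50.7, 47.6 and 49.8 FPKM in WT and at 43.7, 40.8 and 43.7 FPKM in PGRN KO. The genotypes did not overlap, and Herpud1 fell by 0.20 ± 0.048 (limma, adjusted p = 0.0297). It was not called with plain totals, quantile normalization, voom or eBayes without trend, nor without any 1 of the 3 WT libraries or PGRN KO replicate 5, with log2 fold changes over all alternatives of -0.23 to -0.086.

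The ubiquitin ligase Syvn1 (log2 fold change 0.050), its partner Sel1l (0.049), the lectin Edem1 (-0.029) and the channel proteins Derl1 (-0.048) and Derl2 (0.086, called higher with voom) overlapped between genotypes and were not called. Edem1 and Derl1 had positive values with plain totals (0.089 and 0.071). Herpud1 was the 1 gene of the 6 whose genotypes did not overlap.

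The Herpud1 promoter holds a second kind of ER stress element, ERSE-II (ATTGGNCCACG), and an amino acid response element (CARE, TGATGNAA), at which ATF4 binds with a C/EBP partner. ERSE-II was in 0.0365% of all promoters (0.0444% of genes with a promoter) and, among the 37 genes, in Herpud1 and Dnajb11. The stretch is shown because it joins both kinds of element, marked in capitals with the CARE on the opposite strand, and it overlaps no GENCODE exon.
Herpud1, chr8:94386307-94386397, plus strand: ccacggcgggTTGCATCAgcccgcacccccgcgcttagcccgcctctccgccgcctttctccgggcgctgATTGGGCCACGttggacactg
A further element bound by XBP1, the unfolded protein response element (TGACGTGG), was in 0.676% of promoters (0.714% of genes with a promoter) and in 0 of the 37 genes.

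Of the 4 genes of the sensors and XBP1, 0 were called in either direction (limma, adjusted p of 0.0528 to 0.265, with unadjusted p under 0.05 for Xbp1, Atf6 and Eif2ak3), while voom called 3 higher (Xbp1, Eif2ak3 and Ern1), and their median log2 fold change was 0.15. Xbp1 (ENSMUSG00000020484, chr11:5520659-5525893) was at 49.8, 49 and 45.1 FPKM in WT and at 54.6, 53.9 and 52.9 FPKM in PGRN KO. Its genotypes were apart with PGRN KO higher, yet its log2 fold change of 0.16 ± 0.049 did not pass the threshold (limma, adjusted p = 0.0651). Xbp1 was called higher with a minimum mean FPKM of 1, quantile normalization, plain totals, protein-coding genes alone and voom, with values over all alternatives of 0.12 to 0.29. The values count the gene as a whole and do not show how much of the mRNA was spliced by IRE1.

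Atf6 was at 5.96, 6.24 and 6.85 FPKM in WT and at 5.31, 5.31 and 5.28 FPKM in PGRN KO. Here the PGRN KO libraries were lower and nearly equal, and the log2 fold change was -0.22 ± 0.062 (limma, adjusted p = 0.0528). It passed the threshold with a minimum mean FPKM of 1, quantile normalization and protein-coding genes alone. Ern1 was at 1.73, 1.85 and 1.94 FPKM in WT and at 1.94, 2.26 and 2.12 FPKM in PGRN KO, with a log2 fold change of 0.13 ± 0.071 (limma, adjusted p = 0.265). Eif2ak3, at 2.51, 2.71 and 2.8 FPKM in WT and 3.25, 3.25 and 3.05 FPKM in PGRN KO, had a log2 fold change of 0.19 ± 0.063 (limma, adjusted p = 0.0860). Ern1 overlapped between genotypes by its lowest knockout library, and Eif2ak3 did not overlap and was called higher with plain totals and voom. The log2 fold changes of 3 of the 4 genes were thus positive and that of Atf6 negative, none past the threshold over all 14807 genes with the authors' scaling.

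Of the 9 regulators of the integrated stress response, 2 fell (22.2%, against 9.95% of all genes tested) and 0 rose, with a median log2 fold change of 0.018. In the fit of genes with a mean FPKM of 1 or more 3 fell, where 17.3% of genes did. With plain totals 1 (Cebpg) was called higher and 0 lower. Atf4 (ENSMUSG00000042406, chr15:80255184-80257541), the central transcription factor of the response, was at 278, 273 and 285 FPKM in WT and at 287, 289.6 and 271 FPKM in PGRN KO. The libraries overlapped fully, and the log2 fold change was 0.018 ± 0.043 (limma, adjusted p = 0.817). It was abundant in both genotypes, at about the level of P4hb by FPKM, and since ATF4 is controlled mainly at translation, its mRNA does not give the amount of protein. With voom alone Atf4 was called higher, where the median of all genes was itself 0.12.

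Ppp1r15a encodes GADD34, the subunit that directs a phosphatase to eIF2 and ends the response. It was at 172, 168 and 153 FPKM in WT and at 137, 109.6 and 101 FPKM in PGRN KO. The knockout libraries were all lower but spread widely, and Ppp1r15a fell by 0.51 ± 0.11 (limma, adjusted p = 0.0241). Its call was lost without WT replicate 1, 2 or 3 or PGRN KO replicate 5 or 6, with every gene above 0 tested and with plain totals, while the log2 fold change stayed between -0.63 and -0.39. Within a library, the ratio of Ppp1r15a to Atf4 was 0.589 ± 0.046 (SD, n = 3) in WT and 0.409 ± 0.058 in PGRN KO.

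Sesn2 encodes a leucine sensor that restrains mTORC1 and is a target of ATF4 and p53. It was at 43.4, 41 and 40.7 FPKM in WT and at 38, 33.8 and 33.1 FPKM in PGRN KO. The genotypes were apart by a small gap, and Sesn2 fell by 0.25 ± 0.063 (limma, adjusted p = 0.0377). Its call was the least firm of the 10 that fell: it was lost in 10 of the 17 alternatives, among them plain totals, quantile normalization, voom and the removal of any library but PGRN KO replicate 4, with values of -0.31 to -0.13.

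Ddit3 encodes CHOP, the transcription factor that follows ATF4 and is tied to cell death under prolonged stress. It was at 49, 51.7 and 52.1 FPKM in WT and at 45.9, 46.9 and 44.3 FPKM in PGRN KO. The PGRN KO libraries were all lower, but the log2 fold change of -0.15 ± 0.045 was not past the threshold (limma, adjusted p = 0.0609), and it was -0.034 with plain totals. Of the remaining regulators, Chac1, an enzyme that degrades glutathione, had a log2 fold change of 0.10, the C/EBP partner Cebpg 0.096, the chromatin-associated stress factor Nupr1 0.049, the pseudokinase Trib3, which inhibits ATF4 and CHOP, 0.031, and Atf5, a transcription factor that is translated under the same control as ATF4, -0.061 (0.053 with plain totals). Atf5 varied most between replicates in PGRN KO, at a coefficient of variation of 19.7%, and the standard error of its difference was 0.13.

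By number of genes, the enzymes and transporters of amino acid supply went the other way: of 8 genes 6 rose and 1 fell, both with the authors' scaling and with plain totals, with a median log2 fold change of 0.32 and 0.43. With the authors' scaling 75% thus rose, against 7.94% of all genes tested. The counts were the same in the fit of genes with a mean FPKM of 1 or more, where 13.7% of genes rose. Their summed level was lower in PGRN KO with the authors' scaling (397.9 to 408.5 FPKM in WT, 334.3 to 358.1 FPKM in PGRN KO). Most of that sum was Slc3a2, the gene that fell. Phgdh and Psat1 act in the making of serine, and Shmt2 and Mthfd2 in its use in one-carbon metabolism. Of other genes of that route outside the 42, named after their values were seen, Psph, the last enzyme of serine synthesis, rose (by 0.41, limma, adjusted p = 0.0141) and Shmt1, the cytosolic counterpart of Shmt2, fell (by 0.34, adjusted p = 0.0245). Psph was at a low level, with a mean of 0.43 FPKM in WT and 0.89 FPKM in PGRN KO. Mthfd1l (log2 fold change 0.22) and Mthfd1 (0.087) were not called.

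Phgdh (ENSMUSG00000053398, chr3:98313170-98339990), the enzyme of the first step of serine synthesis, was at 10.5, 11 and 10.6 FPKM in WT and at 24.1, 25.2 and 26 FPKM in PGRN KO. The knockout level was 2.35-fold the WT level, with tight replicates in both genotypes, and the rise of 1.16 ± 0.048 on the log2 scale was the largest of the 42 genes (limma, adjusted p = 7.06e-05). The ratio of Phgdh to Atf4 within a library went from 0.0384 ± 0.0016 (SD, n = 3) in WT to 0.0891 ± 0.0062 in PGRN KO.

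Psat1, the aminotransferase of the following step, was at 1.43, 1.06 and 1.24 FPKM in WT and at 1.82, 1.99 and 2.33 FPKM in PGRN KO, and rose by 0.44 ± 0.096 (limma, adjusted p = 0.0229). It was among the least abundant of the 42 genes, counted on 268 fragments in WT and 487 in PGRN KO, and it varied most between WT replicates (14.9%). Shmt2, the mitochondrial enzyme that takes a carbon unit from serine, was at 3.28, 2.84 and 2.63 FPKM in WT and at 4.27, 4.07 and 3.7 FPKM in PGRN KO, and rose by 0.36 ± 0.084 (limma, adjusted p = 0.0297). Mthfd2, which carries that unit forward in mitochondria, was at 23, 22.3 and 22.8 FPKM in WT and at 25.7, 26.5 and 26.2 FPKM in PGRN KO, and rose by 0.19 ± 0.040 (limma, adjusted p = 0.0192). In each of the 3 genes the lowest knockout library exceeded the highest WT library.

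Asns (ENSMUSG00000029752, chr6:7675169-7693254), asparagine synthetase and a standard target of ATF4, was at 25.4, 25.2 and 29.7 FPKM in WT and at 32.4, 35.3 and 34.6 FPKM in PGRN KO. WT replicate 3 came close to the knockout levels without reaching them, and Asns rose by 0.34 ± 0.074 (limma, adjusted p = 0.0237). Calls of these genes depended on single libraries although their direction did not. Asns lost its call without WT replicate 1 or 2 or PGRN KO replicate 5 or 6 (log2 fold change over all alternatives 0.30 to 0.47), Psat1 without WT replicate 2 or 3 or PGRN KO replicate 5 or 6 (0.38 to 0.85), Shmt2 without WT replicate 2 or 3 or PGRN KO replicate 4 or 5 (0.31 to 0.58), and Mthfd2 without WT replicate 1 or 2 or PGRN KO replicate 5 (0.18 to 0.32). Psat1 and Shmt2 also lost it when every gene above 0 was tested, and Phgdh kept it throughout.

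The CARE named above was in 3.97% of all promoters, or in 4.51% of genes with a promoter. It was in the promoters of 5 of the 37 genes (13.5%): Asns, Chac1, Herpud1, Nupr1 and Trib3. Asns rose, Herpud1 fell and the other 3 were not called, and no match was found in this window for Phgdh, Psat1, Shmt2, Mthfd2 or Slc3a2. The Asns and Chac1 stretches are shown as a gene that rose and one that was not called, with the element in capitals, on the opposite strand in Chac1. The Asns stretch lies in exon 1 of the GENCODE transcript Asns-201, and the Chac1 stretch overlaps no GENCODE exon.
Asns, chr6:7693214-7693243, minus strand: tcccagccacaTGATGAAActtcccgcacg
Chac1, chr2:119351023-119351082, plus strand: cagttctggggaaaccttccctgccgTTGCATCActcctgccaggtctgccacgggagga
The element lies from base -23 to base -16 in Asns and from base -193 to base -186 in Chac1.

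The transporters divided. Slc3a2 (ENSMUSG00000010095, chr19:8706882-8723369) encodes the heavy chain CD98, which carries several amino acid transporters to the cell surface. It was at 339, 329.7 and 326 FPKM in WT and at 262, 239.7 and 234 FPKM in PGRN KO. It was the most abundant of the 42 genes in WT by FPKM, its genotypes were well apart, and it fell by 0.44 ± 0.052 (limma, adjusted p = 0.00287).

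Slc7a5 encodes LAT1, the light chain that joins CD98 to import leucine and other large amino acids. It was at 4.78, 4.61 and 5.02 FPKM in WT and at 6.6, 5.69 and 6.22 FPKM in PGRN KO. It rose by 0.30 ± 0.068 (limma, adjusted p = 0.0254) while the mRNA of its heavy chain fell. The call of Slc7a5 was lost without WT replicate 1, 2 or 3 or PGRN KO replicate 4 or 6, with values over the alternatives of 0.26 to 0.48. Within a library, the FPKM ratio of Slc3a2 to Slc7a5 was 70.9, 71.5 and 64.9 in WT and 39.6, 42.2 and 37.6 in PGRN KO. The mRNA of Slc3a2 was thus far above that of Slc7a5 in both genotypes, and less so in the knockout. These values do not give the amounts of the protein chains. Slc7a11, the other main light chain of CD98, which exchanges cystine for glutamate, fell as well (by 0.48, limma, adjusted p = 0.00782), and the ratio of Slc3a2 to Slc7a11 was 2.5 ± 0.26 (SD, n = 3) in WT and 2.58 ± 0.22 in PGRN KO, a difference within the spread between replicates. Slc7a1, a carrier of arginine and lysine, overlapped between genotypes (log2 fold change 0.10).

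**Figure D3:**
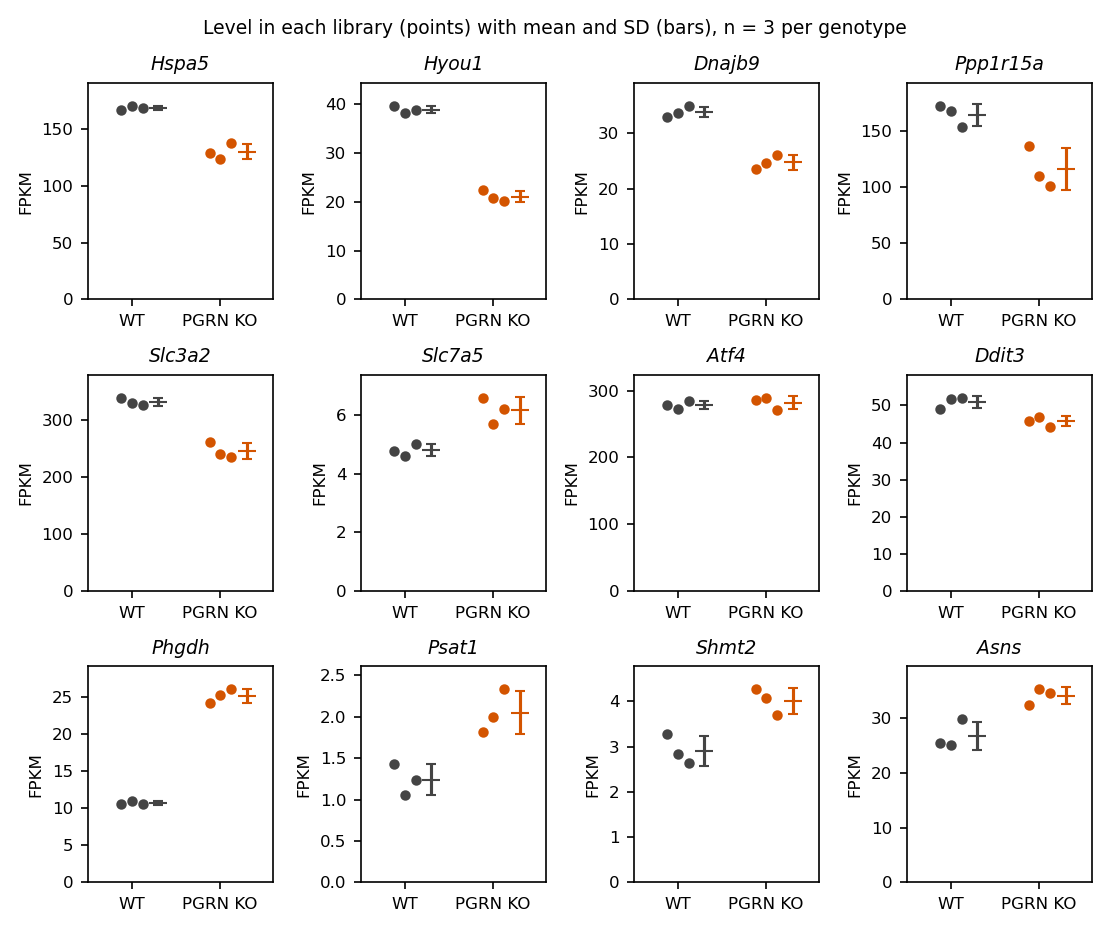
FPKM of 12 of the genes in each library (points; dark, WT; orange, PGRN KO) with the mean and SD of the 3 libraries of each genotype (bars); every axis starts at 0. Hspa5, Hyou1, Dnajb9, Ppp1r15a and Slc3a2, and Ddit3, which was not called, are lower in each PGRN KO library than in any WT library, Phgdh, Psat1, Shmt2, Asns and Slc7a5 are higher, and Atf4 overlaps.

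Across the 42 genes, replicates were close, with a median coefficient of variation of 3.46% in WT and 5.19% in PGRN KO. Levels relative to Atf4 lay to both sides of those in WT. Within a library, the ratio of Asns to Atf4 was 0.0960 ± 0.0072 (SD, n = 3) in WT and 0.121 ± 0.0075 in PGRN KO, that of Hspa5 to Atf4 was 0.603 ± 0.017 and 0.461 ± 0.041, and that of Ddit3 to Atf4 was 0.183 ± 0.0064 and 0.162 ± 0.0017. These ratios do not change when each library is scaled by a single factor.

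Beyond the 42 genes, 142 other genes of the same pathways were examined, of which 129 were tested. Of these, 15 were called higher (11.6%, against 7.94% of all genes tested) and 14 lower (10.9%, against 9.95%). With plain totals the counts were 30 and 7, where 14.5% of all genes tested were called higher and 6.31% lower. By list, 7 of 23 genes of translocation and glycosylation rose and 2 fell, 9 of 24 other targets of ATF4 and CHOP fell and 1 rose, and 4 of 19 aminoacyl-tRNA synthetases rose and 1 fell. Of 22 other folding factors 2 rose and 1 fell, of 21 other degradation genes 1 rose and 1 fell, and of 20 other sensors and signalling genes 0 were called (limma, with the authors' scaling). In the last list 4 genes had an unadjusted p under 0.05, and voom called 2 higher. With plain totals the calls were 10 higher and 0 lower for translocation and glycosylation, 4 and 6 for the other ATF4 and CHOP targets, and 7 and 0 for the synthetases, and with voom they were 12 and 0, 8 and 8, and 8 and 0. Over all genes tested, voom called 20.2% higher and 8.46% lower. Without WT replicate 1, 2 or 3 or PGRN KO replicate 5, the synthetases had 1 higher and 0 lower, and the translocation and glycosylation genes had 3 and 0, 2 and 0, 3 and 1, and 3 and 0 in that order. The latter also had 3 and 1 without PGRN KO replicate 6, and the synthetases 2 and 0 without PGRN KO replicate 4 or 6. The other ATF4 and CHOP targets had 6 lower without WT replicate 2, WT replicate 3 or PGRN KO replicate 5.

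**Figure D4:**
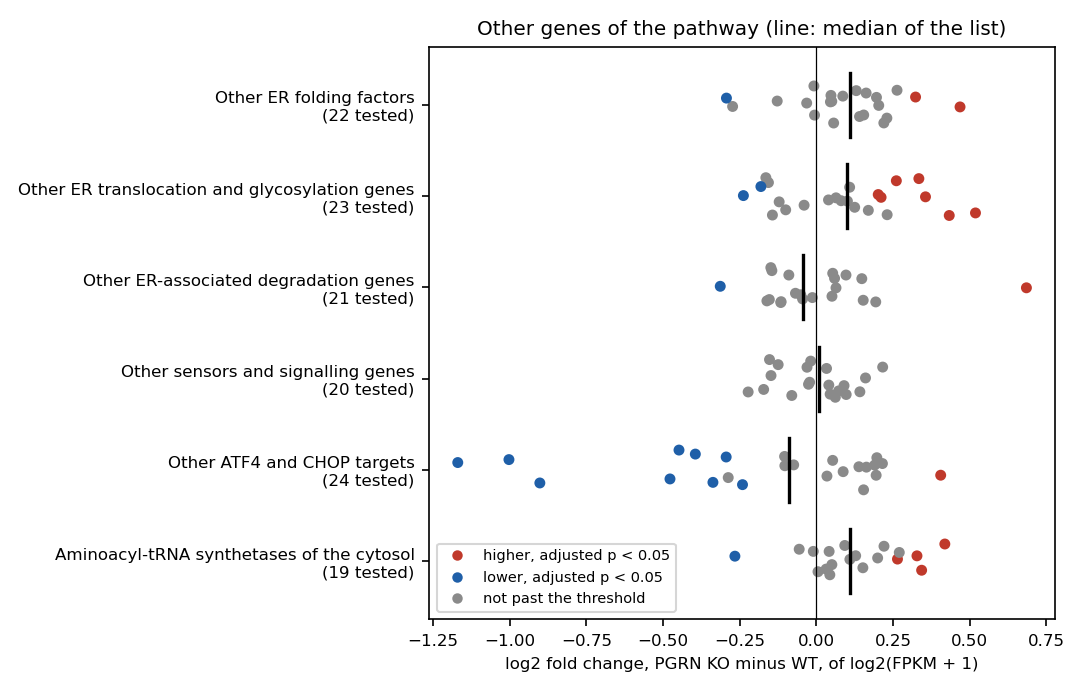
Log2 fold change (PGRN KO minus WT, of log2(FPKM + 1)) of 129 other genes of the pathway in 6 lists, 1 point per gene, coloured by call, with the median of each list as a black line; the vertical position within a list has no meaning. With the authors' scaling, 9 of the 14 blue points lie among the other ATF4 and CHOP targets and 7 of the 15 red points among the translocation and glycosylation genes.

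The 5 largest falls were all in the list of other ATF4 and CHOP targets. Gdf15, a secreted stress cytokine, was at 104, 91.2 and 98.9 FPKM in WT and at 49.5, 40.6 and 39.3 FPKM in PGRN KO, and fell by 1.17 ± 0.095 (limma, adjusted p = 0.000759). Atf3, a transcription factor induced by ATF4 and by inflammatory signals, was at 377, 374 and 372 FPKM in WT and at 207, 192 and 200.4 FPKM in PGRN KO, and fell by 0.90 ± 0.042 (limma, adjusted p = 0.000105). Both lay far apart between genotypes, with every PGRN KO library well under the WT range. The ratio of Atf3 to Atf4 was 1.34 ± 0.033 (SD, n = 3) in WT and 0.709 ± 0.041 in PGRN KO. Ass1, the argininosuccinate synthase of arginine synthesis, fell by 1.00, and the autophagy receptor Sqstm1 fell by 0.45. Gdf15, Atf3, Ass1, Sqstm1 and Slc7a11 were called lower in all 17 alternatives.

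Among called genes with a mean FPKM of 1 or more, the 5 largest rises were as follows. Sec11c, a subunit of the signal peptidase, rose by 0.52, Sil1, a nucleotide exchange factor of BiP, by 0.47, Sec61b, a subunit of the ER translocation channel, by 0.43, Gars, the glycyl-tRNA synthetase, by 0.42, and Ssr4, of the translocon-associated complex, by 0.36 (limma, adjusted p of 0.0161, 0.00244, 0.0117 and 0.00425 for Sil1, Sec61b, Gars and Ssr4, and 0.0268 for Sec11c). Sil1 and Hyou1 both exchange nucleotide on BiP, and the first was at 1.78 ± 0.15 FPKM in WT and 2.85 ± 0.37 FPKM in PGRN KO (SD, n = 3) while the second fell. Sec61b, Gars and Ssr4 were called in all 17 alternatives, whereas Sil1 lost its call without WT replicate 2 or 3 or PGRN KO replicate 5 (log2 fold change over the alternatives 0.40 to 0.79) and Sec11c without any library but PGRN KO replicate 4 (0.44 to 0.68). Nars, the asparaginyl-tRNA synthetase, had a log2 fold change of 0.19 (limma, adjusted p = 0.0665), and its genotypes did not overlap. It was called higher with a minimum mean FPKM of 1, quantile normalization, plain totals, protein-coding genes alone and voom. Its values over all alternatives were 0.14 to 0.32. Cth, of cysteine synthesis from methionine, was under the minimum level for testing, with 3 fragments in WT and 12 in PGRN KO.

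Markers of other cells differed between genotypes beside these results, and their part in them was not tested. All 5 markers of promyelocytes, the granule-forming precursors of neutrophils, rose in PGRN KO (Elane, Mpo, Ctsg, Prtn3 and Ms4a3, summed 129 to 144 FPKM in WT and 609 to 670.4 FPKM in PGRN KO). Of 10 plasma cell markers 6 rose and 2 fell (summed 468 to 484.5 FPKM and 2195 to 2488 FPKM, nearly all of it Igkc), where the immunoglobulin gene Igkc was at 418, 419 and 407 FPKM in WT and 2096, 2205 and 2373 FPKM in PGRN KO, and Sdc1 overlapped between genotypes (log2 fold change 0.019). The 2 that fell were Ighm (log2 fold change -1.19) and Prdm1 (-0.36), of which Prdm1 was not called with plain totals. Of 9 markers of dividing cells, 8 rose (summed 138 to 140 FPKM and 173 to 182 FPKM). These are cells in which secretory and biosynthetic genes are known to be active. Derl3, a plasma cell marker that is also one of the other degradation genes, was the only gene shared between the marker lists and the pathway lists.

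Among the remaining lists, 3 of 3 tested B cell markers rose (Pax5 was at 0 in all libraries), as did 4 of 5 of basophils and mast cells, 3 of 3 of eosinophils, 2 of 2 of erythroid cells, 1 of 2 of megakaryocytes, and 1 of 2 of T and NK cells (Nkg7, with Cd3e and Cd3g at 0), each list at a summed level under 13 FPKM. Of 7 monocyte and macrophage markers 1 rose and 3 fell (summed 527 to 532.8 FPKM in WT and 552 to 699 FPKM in PGRN KO). Most of that sum was Ly6c2, the gene that rose (mean 401 FPKM in WT and 521 FPKM in PGRN KO), while 5 of the 7 had a negative value. Of 2 dendritic cell markers 1, H2-Ab1, fell (the list summed to 30.1 to 36.5 FPKM and 17.4 to 18.8 FPKM). Of the 11 neutrophil markers, 1 rose (Mmp9), 2 fell (Csf3r and Mmp8) and 8 were not called. The counts of the promyelocyte, dividing cell and monocyte lists were the same with plain totals, where the neutrophil markers had 3 higher and 0 lower.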

How the data were processed

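RNA was sequenced from 3 WT and 3 PGRN KO neutrophil libraries, which were grouped by their labels. The authors filtered reads, mapped them and deposited FPKM values per gene. The paper's methods name HISAT and HTSeq, whereas the submitters' processing notes name HISAT2 2.0.5, featureCounts 1.5.0-p3 and DESeq2 1.20.0 and the build GRCm38 (mm10). The submitters give a multiplicity of infection that differs between the labels and the methods.

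FPKM multiplied by gene length gave whole fragments (within 0.05) for 100% of values above 0, which returned the depth of each library (17290604 to 17799798 fragments in WT, 17087344 to 18821091 in PGRN KO). Depth sets the precision of low values, and fragment numbers cover counting error only. Replicates differed by more than sampling noise (chi-square per degree of freedom 2.83 to 11.7), so no library was counted as a copy.

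Genes whose mean FPKM reached 0.1 (14807; 31614 of 54532 genes were at 0) were compared on log2(FPKM + 1) with limma 3.58.1 (lmFit, eBayes with trend) in R 4.3.3, two-sided, with Benjamini-Hochberg adjustment over all genes tested. Tables were made with Python 3.11.15, pandas 2.3.3 and numpy 2.4.6. The fit was tested on simulated data. Nothing says that the libraries came from separate animals, so p-values measure the spread between these libraries, which may be technical. An exact permutation test of 3 against 3 libraries cannot go below p = 0.10 and was not used.

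The 42 genes, the other lists and the markers were chosen with earlier results of these data known. Levels in every library are given for each gene of the 42 called by limma and for Hspa5, Xbp1, Atf6, Ern1, Eif2ak3, Atf4 and Ddit3. Of the other genes of the pathway, called genes whose mean FPKM reached 1 were named, the 5 largest rises and the 5 largest falls, with Atf3, Nars and Cth. Psph, Shmt1, Mthfd1l and Mthfd1 were named outside this rule, after their values were seen. The ratios, and the library levels given for Gdf15, Atf3 and Sil1, were chosen after the values were seen.

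The alternatives tried were pseudocounts of 0.1 and 0.5, every gene above 0, a minimum mean FPKM of 1, median-of-ratios and quantile scaling, plain totals of fragments, eBayes with no trend or with the robust option, a table of protein-coding genes, voom on fragments, leaving out each library, and a minimum absolute log2 fold change of 0.25. Motifs were searched in RefSeq promoters, and exons are those of GENCODE on GRCm38. Protein sequences were not analysed here.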

Additional observations from a re-analysis of the deposited data

How the results depend on the processing

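Of the 42 genes, 4 were called lower with plain totals and 5 with voom, and 13 were called higher with voom. Their median log2 fold change was 0.10 with plain totals and 0.11 with voom. A minimum change of 0.25 on the log2 scale left 5 lower, and of the genes called higher it removed Mthfd2 alone (log2 fold change 0.19). The share of all genes past this minimum was not counted. Leaving out 1 library gave 1 to 4 genes higher (3, 1 and 3 without WT replicates 1, 2 and 3, and 4, 2 and 3 without PGRN KO replicates 4, 5 and 6) and 4 to 10 lower (5, 4, 6, 10, 4 and 6 in that order), when over all genes 540 to 913 were called higher and 775 to 1248 lower. The fits with fewer libraries have less power by construction, and the causes of the other changes were not tested. Among the other 129 genes, 9 were higher and 9 lower when every gene above 0 was tested, 30 and 7 with plain totals, and 44 higher with voom. Over all genes, 864 of 22918 were higher and 1173 lower in the first of these fits. With plain totals 14.5% of all genes were higher and 6.31% lower, and with voom 20.2% were higher. Leaving out 1 library gave 5 to 12 of the 129 genes higher and 7 to 13 lower, with both lowest counts without WT replicate 2 and without PGRN KO replicate 5.

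Over the 42 genes and 17 alternatives, 606 values kept direction and call, 66 lost the call, 17 gained one and 25 changed sign, all of the last in genes that were not called: Canx (0.021 with plain totals, 0.022 with voom), Dnajc3 (0.087, 0.10), Edem1 (0.089, 0.091, and 0.0050 with quantile normalization), Derl1 (0.071, 0.072, 0.012) and Atf5 (0.053, 0.050). With 1 library left out, values of both signs were found for Pdia3 (-0.056 to 0.068), Dnajc3 (-0.082 to 0.030), Manf (-0.018 to 0.097), Sel1l (-0.026 to 0.10), Syvn1 (-0.042 to 0.20), Atf4 (-0.0011 to 0.048) and Atf5 (-0.18 to 0.091). No paired analysis was possible because the genotypes share no replicate numbers. Depth limited the precision for Psat1, Cth and other genes at low levels.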
